A study of Arabidopsis thaliana with 3 samples.

Results

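Cysteine-rich receptor-like kinases (CRKs) form one of the large receptor kinase families of Arabidopsis thaliana. The members described here were given as 38 locus codes, and a gene was measured where the platform annotation and the RefSeq gene table led at least 1 probe to its code. All 38 were measured, among 24650 genes in all, by 50 probes. Of the members, 34 lie on chromosome 4, and 19 of these form a tandem cluster from AT4G23130 to AT4G23320.

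A CRK carries a pair of DUF26 domains, each with conserved cysteines, outside the cell, a membrane span, and a serine/threonine kinase domain in the cytosol. The family is known for roles at the cell surface in pathogen defence, cell death and the response to reactive oxygen, and transcripts of many CRK genes accumulate after pathogen attack, ozone or salicylic acid treatment. The genes arose largely by tandem duplication, so that neighbours on chromosome 4 encode similar proteins.

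The RNA compared was that of lsm1a lsm1b rosettes and that of Col-0 rosettes. The lsm1a lsm1b plants are mutant in both Arabidopsis genes for LSM1. This protein is part of the LSM1-7 ring of the cytoplasm, which helps messenger RNAs to be decapped and degraded. Col-0 is the wild type, labelled control. The 3 two-colour arrays are biological replicates, each with both RNAs, and the mutant was in Cy3 on arrays 1 and 3 and in Cy5 on array 2. The mutant alleles, and whether plants were pooled, are not given in the labels. The characteristics give an age of 2 weeks and the growth protocol 22 °C, while the descriptions give 3 weeks and 1 day at 4 °C, for both genotypes alike.

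Every value is a log2 ratio within an array, read as lsm1a lsm1b over Col-0. That direction is not certain. In every sample the labels list the mutant as channel 1 and call Col-0 the control, but the sample titles name Col-0 before the mutant. If it is reversed, every direction given here turns. The ratios had been turned one way before deposit, since array 2 correlated above 0 with arrays 1 and 3 over all genes (Pearson r = 0.427 and 0.452; arrays 1 and 3 gave 0.745). Ratios hold no levels, so whether a CRK gene was expressed in these rosettes, and whether the RNA held leaf markers, cannot be read from them. Fewer cells of a type and less RNA per cell cannot be told apart either. Ratios of root, flower, seed and stomatal lineage markers had medians of -0.06, 0.19, -0.06 and -0.15, and 0 of these 18 genes passed the test (limma; 0 also at an unadjusted p under 0.05). The 2 largest absolute means of each marker list were CPC at -0.21 and PHO1 at 0.15 (root), AP1 at 0.30 and AP3 at 0.20 (flower), CRU3 at -0.13 and OLEO1 at -0.08 (seed), and FAMA at -0.37 and TMM at -0.32 (stomatal lineage).

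As a family the CRK genes did not shift one way. The members' mean log2 ratios over the 3 arrays had a median of 0.035, against 0.01 over all genes, with 22 means above 0 and 16 below. They were spread widely instead: from -1.25 for CRK12 to 1.28 for CRK8. An absolute mean of at least 0.5 was found for 14 of 38 members (36.8%), where 11.6% of all genes had one. An absolute mean of at least 1, a 2-fold difference, was found for 4 members (10.5%), against 2.57% of all genes. All 4 lie in the AT4G23130 to AT4G23320 cluster, and these are CRK8, CRK6, CRK12 and CRK14.

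The limma test of the mean ratio against 0, adjusted over all genes by Benjamini-Hochberg, called 1 of 38 members (2.63%), where it called 1.21% of all genes. CRK12 was called lower, and 0.584% of all genes were called lower. No member was called higher (0 in limma, and 6 at an unadjusted p under 0.05), and 0.625% of all genes were. At an unadjusted p under 0.05 there were 16 members (42.1%), against 20.1% of all genes. Of these, 6 were higher and 10 lower, where 10.6% and 9.48% of all genes were. The 95% interval of the mean from the same fit, unadjusted, includes 0 for the other 22. A sign above 0 on all 3 arrays was seen for 10 members (26.3%), against 19.7% of all genes, and a sign below 0 on all 3 for 10 (26.3%), against 18% of all genes. The remaining 18 members had mixed signs or a 0.

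CRK12 (AT4G23200) is the member with the lowest mean. Its ratios were -1.46, -1.36 and -0.94 on arrays 1, 2 and 3. All 3 lie far below 0 and close together, with array 3 the nearest to 0. The transcript fell 2.38-fold in lsm1a lsm1b (mean -1.25 ± 0.28, SD, n = 3 arrays; limma adjusted p = 0.0465), and its mean ranked 152 from the lowest of 24650 genes. The call was lost in other settings of limma. The adjusted p was 0.0514 with robust moderation of the variances, 0.0588 with probes in place of genes as the unit of the test, 0.076 with a dye term, and 0.295, 0.0768 and 0.159 without array 1, 2 or 3. It was 0.0456 with arrays scaled to equal median absolute deviation. CRK12 was measured by 1 probe, so a lower level cannot be told apart from a poorer match of that probe in the mutant.

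CRK11 (AT4G23190), the direct neighbour of CRK12 and also named RLK3, is a gene known to respond to oxidative stress and salicylic acid. Its ratios were 0.625, 0.94 and 0.84. All 3 lie above 0, and its SD of 0.16 is the smallest among members with an absolute mean of at least 0.5. The mean of 0.80 is 1.74-fold (95% interval 0.53 to 1.07), and its adjusted p of 0.0541 in limma lies just outside the threshold of 0.05, where that of CRK12 lies just inside. Its 2 probes gave means of 0.68 and 0.93.

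CRK8 (AT4G23160) had the highest mean of the family. Its ratios were 0.945, 1.99 and 0.89, so array 2, with the dyes swapped, was about 1 log2 unit above the others. The mean of 1.28 ± 0.62 (SD, n = 3 arrays) is 2.42-fold and ranked 185 from the highest of all genes, but did not pass (limma adjusted p = 0.0923). Both of its probes showed it, with means of 1.23 and 1.32.

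CRK10 (AT4G23180), also named RLK4, stood at 0.49, 1.06 and 0.35. All 3 are above 0 with array 2 the highest, and the mean of 0.63 ± 0.38 did not pass (limma adjusted p = 0.143). CRK9 (AT4G23170, now EP1), which lies between CRK8 and CRK10 and is not among the members, stood at 0.16, 0.86 and 0.485. Its 2 probes disagreed, with means of -0.11 and 1.11, so its mean of 0.50 describes neither probe.

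**Figure D1:**
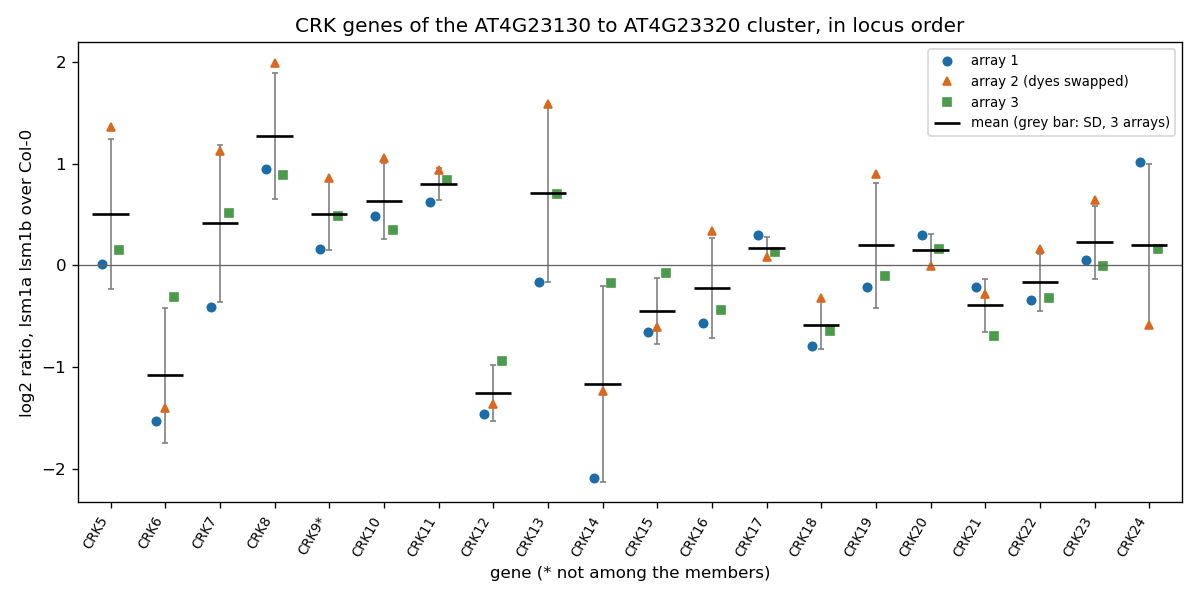
Log2 ratios of lsm1a lsm1b over Col-0 (y axis) for the 19 CRK members from AT4G23130 to AT4G23320 and for CRK9, in locus order (x axis); points are arrays, lines are means and grey bars the SD of 3 arrays. CRK6, CRK12 and CRK14 lie between -1.08 and -1.25 on average. Their neighbours CRK5, CRK7, CRK11 and CRK13 lie between 0.41 and 0.80, while CRK15, also a neighbour of CRK14, lies at -0.445. Over arrays 1 and 3 alone, CRK5, CRK7 and CRK13 lie at 0.08, 0.055 and 0.27, and CRK11 at 0.73.

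CRK6 and CRK7 are neighbours known to act in the response to reactive oxygen outside the cell. CRK6 (AT4G23140) had ratios of -1.53, -1.405 and -0.315. Arrays 1 and 2 lie far below 0 and array 3 much nearer to it. Its mean of -1.08 ± 0.67 did not pass (limma adjusted p = 0.132), and its probes gave means of -1.16 and -1.01. CRK7 (AT4G23150) had ratios of -0.41, 1.13 and 0.52. Its sign differs between arrays, and its mean of 0.41 ± 0.78 did not pass (limma adjusted p = 0.578).

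CRK14 (AT4G23220) had the widest spread between arrays in the family. Its ratios were -2.09, -1.235 and -0.17. The order of the arrays is that of CRK6, with array 3 nearest to 0. The mean of -1.165 ± 0.96 did not pass (limma adjusted p = 0.20), and its 2 probes gave means of -1.28 and -1.05. CRK15 (AT4G23230), the next gene, stood at -0.655, -0.61 and -0.07, with a mean of -0.445 ± 0.33 (limma adjusted p = 0.209). Averaged over its probes, this is a smaller difference with the same order of arrays. Its 2 probes gave means of -0.66 and -0.23, and the latter probe had another order, at -0.33, -0.57 and 0.22.

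Overexpression of CRK5 or CRK13 is known to raise resistance to Pseudomonas or to trigger cell death. CRK5 (AT4G23130) had ratios of 0.01, 1.36 and 0.15. Only array 2 lies clearly above 0, and the mean of 0.51 would be 0.08 over arrays 1 and 3. CRK13 (AT4G23210) had ratios of -0.16, 1.59 and 0.70, a mean of 0.71 ± 0.88 (limma adjusted p = 0.363), and 0.27 over arrays 1 and 3. For both genes array 2 carried most of the mean ratio.

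CRK18 (AT4G23260) was measured by 3 probes, the most of any member. Its ratios were -0.79, -0.32 and -0.65. All lie below 0 and its 3 probe means lay between -0.64 and -0.51. The mean of -0.59 ± 0.24 did not pass (limma adjusted p = 0.10). Its neighbour CRK17 (AT4G23250), now named EMB1290 after an embryo-defective mutant, stood at 0.295, 0.08 and 0.135, with probe means of 0.13 and 0.21.

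CRK19 and CRK20, which are known to cause cell death when overexpressed, lay close to 0 on average. CRK19 (AT4G23270) stood at -0.21, 0.90 and -0.10, and its mean of 0.20 turns to -0.155 without array 2. CRK20 (AT4G23280) stood at 0.30, -0.01 and 0.16, a mean of 0.15 ± 0.16. CRK24 (AT4G23320), at the end of the cluster, stood at 1.02, -0.59 and 0.16. It is the only member of the 38 whose array 2 lay more than 1 below the mean of arrays 1 and 3. The others of this stretch, CRK16, CRK21, CRK22 and CRK23, had means of -0.22, -0.39, -0.17 and 0.23. Of these 4, CRK21 alone had 1 sign on all arrays (-0.21, -0.28 and -0.69; limma adjusted p = 0.20).

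The AT4G23130 to AT4G23320 cluster thus held its larger ratios in its first part. The 8 members from CRK5 to CRK13 had a median of 0.57, ranging from -1.25 to 1.28, and 7 of 8 had an absolute mean of at least 0.5. Their medians on arrays 1, 2 and 3 were -0.075, 1.095 and 0.435, below 0 on array 1 and highest on array 2. The 11 members from CRK14 to CRK24 had a median of -0.17, ranging from -1.165 to 0.23, and 2 of 11 reached 0.5. This split was made after the values were seen and was not tested. The 10 measured genes on each side of the whole cluster, from AT4G23030 to AT4G23460, had a median of -0.025 and ranged from -0.80 to 0.29. Of these 20, limma called 0 (1 higher and 3 lower at an unadjusted p under 0.05, or 20%, against 20.1% of all genes). An absolute mean of at least 0.5 was found for 1 (5%, against 11.6% of all genes).

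Neighbouring CRK genes often had ratios far apart, and such a difference of ratios within an array does not depend on how the array was centred. Of the 18 pairs of members that follow each other in this tandem cluster, 10 had means of opposite sign (55.6%), close to the 47.9% of all 24633 pairs of neighbouring measured genes. Pairs at least 1 log2 unit apart numbered 5 of 18 (27.8%), against 5.66% of all neighbouring pairs, and the median distance was 0.68, against 0.23. These 5 pairs share genes and are not independent: each holds CRK6, CRK12 or CRK14. Means were also more widely spread in this cluster than over all genes (SD 0.69, against 0.38). Whether neighbours differ more than other members of the cluster was not tested. In 12 of 18 pairs the difference had 1 sign on all 3 arrays (66.7%), against 43.0% of all pairs. No p is given for a single pair: with 3 arrays, an exact two-sided sign-flip permutation test cannot go below 0.25.

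CRK11 and CRK12 stood furthest apart. Their difference was 2.085, 2.30 and 1.78 on arrays 1, 2 and 3, a mean of 2.055 ± 0.26, or 4.16-fold. It was alike on all arrays, the swapped one included. CRK12 minus CRK13 gave -1.30, -2.95 and -1.64, and CRK13 minus CRK14 gave 1.93, 2.825 and 0.87. CRK5 minus CRK6 gave 1.54, 2.765 and 0.465, and CRK6 minus CRK7 gave -1.12, -2.535 and -0.835. In these 4 pairs the sign was the same on every array while the size varied, and it was largest on array 2.

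Among the smaller chromosome 4 groups, the distances between neighbours varied. In the AT4G04490 to AT4G04570 group of 5, all 4 neighbouring pairs differed with 1 sign on all arrays, and CRK39 minus CRK40 was the widest at 1.34, 0.42 and 1.335. The narrowest, CRK37 minus CRK38, lay close to 0 at 0.11, 0.01 and 0.11. In the AT4G11460 to AT4G11530 group of 5, only CRK30 minus CRK31 did so (-0.80, -0.61 and -1.29), and the median distance between neighbours was 0.045. Whether probes of one CRK gene also bind transcripts of its near copies was not tested, since probe sequences were not used here.

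**Figure D2:**
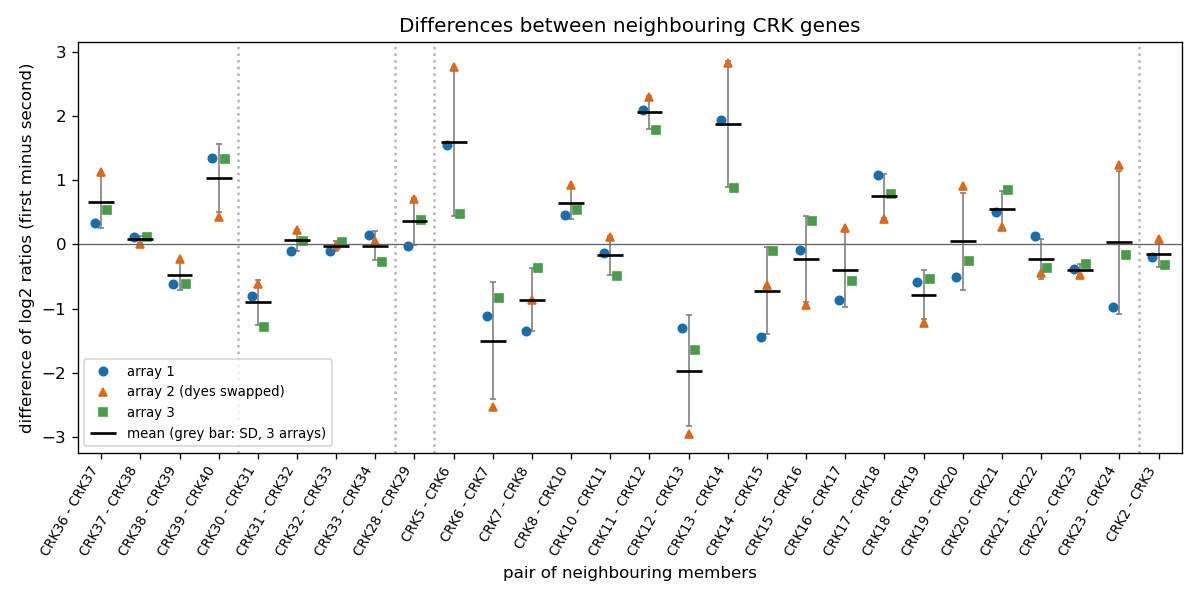
Difference of log2 ratios between CRK members that follow each other within a group (y axis, the gene named first minus the gene named after it; x axis, the 28 pairs, with dotted lines between groups); points are arrays, lines are means and grey bars the SD of 3 arrays. CRK11 minus CRK12 has its 3 points between 1.78 and 2.30, while most pairs of the AT4G11460 to AT4G11530 group lie near 0.

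CRK36 (AT4G04490), known to act with the cytoplasmic kinase BIK1 in immunity, leads the AT4G04490 to AT4G04570 group. Its ratios were 0.13, 1.23 and 0.69. All are above 0, spread over more than 1 log2 unit. The mean of 0.68 ± 0.55 did not pass (limma adjusted p = 0.206). CRK39 (AT4G04540) stood at 0.30, 0.33 and 0.66 (mean 0.43, limma adjusted p = 0.14), and CRK40 (AT4G04570) at -1.04, -0.09 and -0.675 (mean -0.60, limma adjusted p = 0.209). CRK37 and CRK38, which lie between them, had means of 0.02 and -0.05.

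CRK30 (AT4G11460) had the lowest mean outside the large cluster. Its ratios were -0.97, -0.26 and -1.27. All are below 0, with array 2 the nearest to it. The mean of -0.83 ± 0.52 is 1.78-fold lower and did not pass (limma adjusted p = 0.14). The other 4 members of its group, CRK31, CRK32, CRK33 and CRK34, had means between 0.0033 and 0.07, and none of the 4 had 1 sign on all arrays.

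CRK28 and CRK29 are neighbours known to act together, with the co-receptor BAK1, in defence. CRK28 (AT4G21400) stood at -0.48, 0.53 and -0.60, and CRK29 (AT4G21410) at -0.46, -0.18 and -0.98. Arrays 1 and 3 were below 0 for both, and on array 2 their signs parted. Their means of -0.18 and -0.54 did not pass (limma adjusted p = 0.819 and 0.20).

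CRK2, known to phosphorylate the NADPH oxidase RBOHD, stood at 0.06, 0.25 and -0.19. Its neighbour CRK3 stood at 0.26, 0.17 and 0.13. Neither was far from 0, with 95% intervals of the mean from -0.27 to 0.35 for CRK2 and from -0.04 to 0.41 for CRK3. CRK4 (AT3G45860), known to cause cell death when overexpressed, stood at -1.14, 0.00 and -0.40. It was below 0 on arrays 1 and 3 and at 0 on array 2, and its mean of -0.51 ± 0.58 did not pass (limma adjusted p = 0.336). CRK41 (AT4G00970) stood at -0.575, -0.34 and -0.255 and CRK42 (AT5G40380) at 0.27, 0.295 and 0.57. These have 1 sign each, and neither passed (limma adjusted p = 0.143 and 0.15). CRK25 and CRK26 had means of -0.03 and 0.09.

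**Figure D3:**
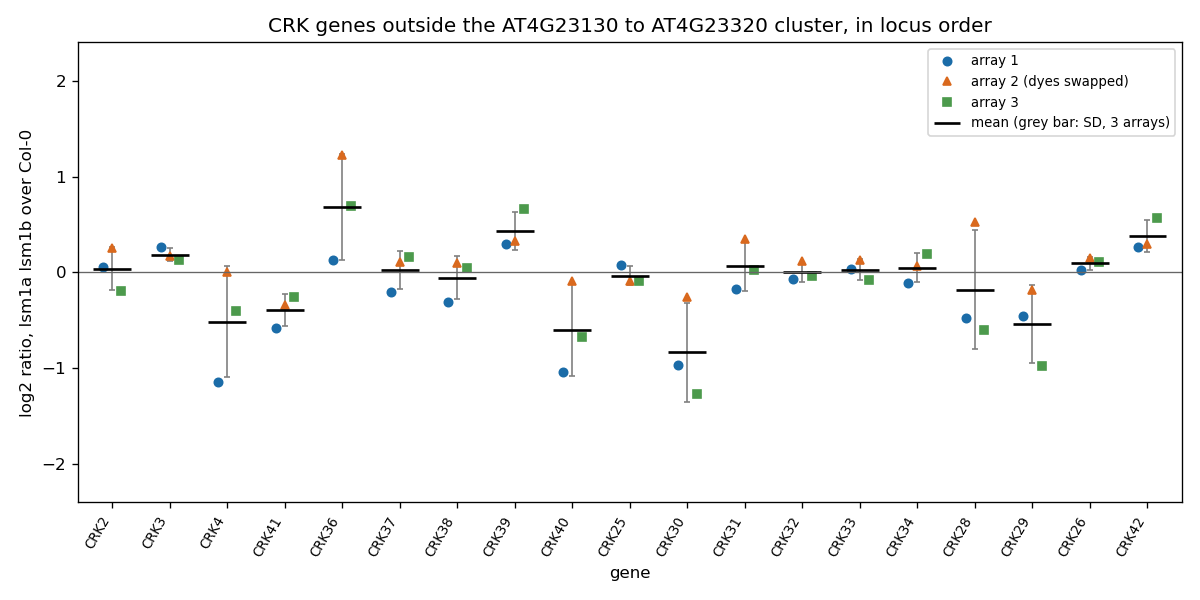
Log2 ratios of lsm1a lsm1b over Col-0 (y axis) for the 19 CRK members outside the AT4G23130 to AT4G23320 cluster, in locus order (x axis); points are arrays, lines are means and grey bars the SD of 3 arrays. Means run from -0.83 (CRK30) to 0.68 (CRK36), and 9 members of the whole family lie within 0.1 of 0, all of them in this plot.

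The 19 members inside the large cluster had a median of 0.17 and an SD between members of 0.69. The 19 outside it had a median of 0.02 and an SD between members of 0.38, and the SD over all genes was 0.38. The spread between arrays was also larger inside it, with a median SD per gene of 0.38, against 0.20 outside it and 0.19 over all genes. The medians on arrays 1, 2 and 3 were -0.21, 0.16 and -0.01 inside it and -0.11, 0.12 and -0.04 outside it. Without array 1, 2 or 3, the median of the mean ratios inside it was 0.075, 0.02 or 0.19, so its size depends on the arrays kept. The median outside it was not computed for these fits.

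Array 2 stood above the others for most members. It was the highest of the 3 arrays for 23 of 38 members, against 10250 of all 24650 genes, and the lowest for 3 members. Array 2 lay above the mean of arrays 1 and 3 for 27 members (71.1%), where this held for 51.7% of all genes, by a median of 0.22, against 0.015 over all genes. A ratio of at least 1 was reached by 6 members on array 2 (CRK5, CRK7, CRK8, CRK10, CRK13 and CRK36), by 1 on array 1 (CRK24) and by 0 on array 3. How many of all genes reached it on each array was not counted, so these counts only describe the members. CRK6, CRK12, CRK14 and CRK15 had array 2 below the mean of arrays 1 and 3, with differences between -0.48 and -0.105. So did CRK24 (-1.18) and CRK3, CRK17, CRK20, CRK25, CRK39 and CRK42 (between -0.24 and -0.025). Array 2 differs from the others both in dye orientation and in its plants, which cannot be told apart.

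Between arrays, the members' ratios correlated at r = 0.650 for arrays 1 and 3 (Spearman's rho 0.750). For arrays 1 and 2 r was 0.620 (rho 0.511), and for arrays 2 and 3 it was 0.627 (rho 0.599). These values are given as a description of 38 related genes on the same arrays. By Pearson's r the pairs with array 2 were near that of arrays 1 and 3, where over all genes they were lower (0.427 and 0.452 against 0.745). By Spearman's rho they were lower among the members too, and over all genes they were 0.157 and 0.226 against 0.696.

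**Figure D4:**
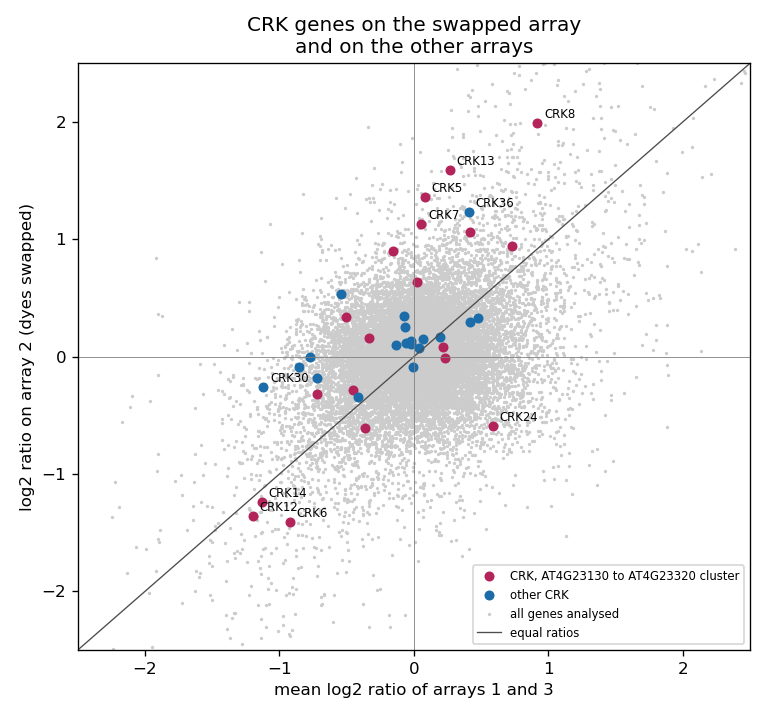
Log2 ratio on array 2, with the dyes swapped (y axis), against the mean of arrays 1 and 3 (x axis) for CRK members (red and blue) and all genes (grey; genes beyond the axes are not drawn). Of the 38 members, 27 lie above the line of equal ratios, CRK5, CRK7, CRK8, CRK13, CRK19 and CRK28 by more than 1, while CRK12 lies within 0.16 of it and CRK24 lies 1.18 below it.

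Of the 11 members with several probes, all 11 had probe means of 1 sign, and the largest gap between probe means was 0.46, for CRK42 (0.15 and 0.61). The other 27 members rest on 1 probe each, CRK12, CRK13, CRK30 and CRK36 among them.

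The list of other DUF26 genes outside the members, like the lists that follow, was chosen with earlier results of these data known. Shares in these lists only describe the listed genes. Of 15 other DUF26 genes listed, 14 were measured, with a median of -0.07. Of these, limma called 0 (3 higher and 4 lower at an unadjusted p under 0.05, or 50%, against 20.1% of all genes). The plasmodesmata-located proteins PDLP5 and PDLP3, with DUF26 domains and no kinase, had the largest absolute means. PDLP5, a known regulator of cell-to-cell channels in salicylic acid defence, stood at 0.745, 0.80 and 0.55 (mean 0.70, limma adjusted p = 0.0603). PDLP3 stood at -0.21, -1.23 and -0.46 (mean -0.63, limma adjusted p = 0.222).

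Receptor complexes and kinases of the pathway in which CRKs are known to act had small ratios. Of 25 measured, limma called 0 (1 higher and 1 lower at an unadjusted p under 0.05, or 8%, against 20.1% of all genes). The median was 0.09, and 2 had an absolute mean of at least 0.5 (8%, against 11.6% of all genes and 36.8% of CRK members). These 2 were FLS2, the flagellin receptor, at -0.71, -0.48 and -0.48 (mean -0.56, limma adjusted p = 0.0778) and CPK5, a calcium-dependent kinase, at 0.83, 0.09 and 0.74 (mean 0.55, limma adjusted p = 0.191). No test compared these lists with each other.

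Other receptor kinase families had different medians. The 5 wall-associated kinases (WAKs), a tandem group on chromosome 1, had a median of 0.53, with WAK1 at 0.35, 1.76 and 1.03 and WAK3 at 0.31, 2.27 and 0.55. Like many CRK members, both were highest on array 2, and limma called 0 of 5 (2 higher and 0 lower at an unadjusted p under 0.05, or 40%, against 20.1% of all genes). The 10 measured lectin receptor kinases of the LecRK-I group had a median of 0.01, with LECRK-I.5 at -1.44, -0.63 and -0.49 and LECRK-I.7 at 0.07, 1.04 and 0.38. Here too limma called 0 (1 higher and 1 lower at an unadjusted p under 0.05, or 20%, against 20.1% of all genes).

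Salicylic acid and WRKY genes, which are known to control many CRK genes, had higher medians than the CRK family. Both are short lists chosen with earlier results of these data known, so their shares only describe the listed genes. Of 19 measured genes of salicylic acid control and response, 14 were above 0 on all 3 arrays (73.7%, against 19.7% of all genes) and 1 below (5.26%, against 18.0%), the median was 0.96, and 1 was called (5.26%, against 1.21% of all genes). This gene is ICS1, the main enzyme of salicylic acid synthesis under stress, which rose 1.96-fold in lsm1a lsm1b (0.80, 1.115 and 0.99; limma adjusted p = 0.0465). Its call, too, was lost in other settings of limma, with an adjusted p of 0.295, 0.0735 and 0.281 without array 1, 2 or 3, 0.0703 with a dye term, 0.062 with scaled arrays and 0.0502 with robust moderation. Of 8 WRKY factors, 7 were above 0 on all 3 arrays (87.5%, against 19.7% of all genes), the median was 1.15, and limma called 0 (7 higher at an unadjusted p under 0.05, or 87.5%, against 10.6% of all genes). WRKY18 stood at 0.55, 2.415 and 1.265 and WRKY60 at 1.14, 1.95 and 1.12. The WRKY medians of 0.29, 1.965 and 0.95 on arrays 1, 2 and 3 were highest on array 2, as were those of the salicylic acid list (0.49, 1.32 and 0.80) and of the CRK members (-0.165, 0.125 and -0.025).

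**Figure D5:**
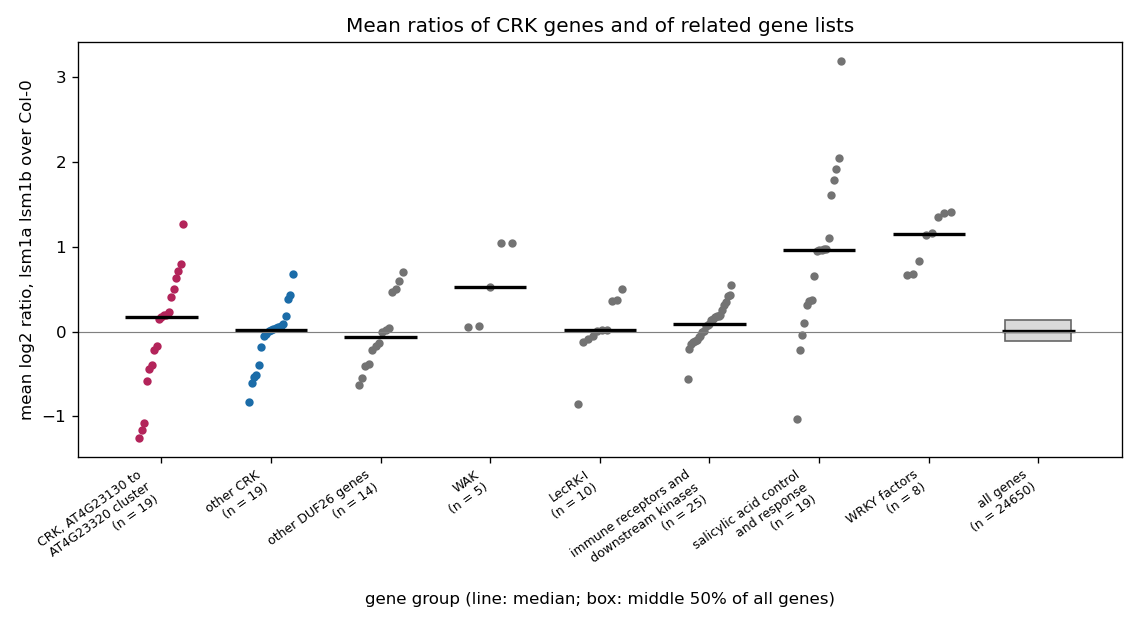
Mean log2 ratios of lsm1a lsm1b over Col-0 (y axis) for CRK members inside and outside the AT4G23130 to AT4G23320 cluster, for 6 related gene lists and for all genes (x axis); points are genes, lines are medians and the box holds the middle 50% of all genes. CRK members spread to both sides of 0, while the 8 WRKY factors all lie at 0.67 or above.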

How the data were processed

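The authors deposited 1 normalized log2 ratio per probe and array, made with limma (version not stated) per the submitters' processing notes. Background correction, array normalization, log base and direction, not given in the sources used here, could not be checked. The base was taken as 2 from the range of the values. Of 43656 rows, 55 control features were left out. Platform annotation gave 1 gene symbol for 34342 of 43601 probes, several for 0 and none for 9259. Through RefSeq (TAIR10.1), 32227 matched by accession and 2033 by symbol, 37 with conflicting matches were left unnamed and 45 matched no gene, which left 34260 probes of 24650 genes. Probes of a gene were averaged per array.

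A moderated test of each gene's mean ratio against 0 was run in R 4.3.3 by limma 3.58.1 (eBayes on an intercept-only lmFit, two-sided), with Benjamini-Hochberg adjustment over all genes and a threshold of 0.05. The fit was tested on simulated data. Lists were described by counts and medians without a test. All measured CRK members are named, and of each other list up to 4 called genes or, with none called, the 2 largest absolute means. CRK9 is also named, as a neighbour of members. CRK members and lists were chosen with earlier results of these data known. Gene order in TAIR10.1 was used only to find neighbours. The number of arrays limits the precision, and intensities were not used, so dim probes could not be recognised.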

Additional observations from a re-analysis of the deposited data

How the results depend on the processing

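The call of CRK12 and the calls over all genes depend on all 3 arrays and on the fit. Members called lower numbered 0 (against 1) without any 1 array, with a dye term and with robust moderation in limma, and 1 with scaled arrays, with the median of the probes and without genes whose probes lie more than 1 apart. Genes called numbered 0 without any 1 array (2804, 7327 and 2542 at an unadjusted p under 0.05 without array 1, 2 or 3), 0 with a dye term (6390 unadjusted), 76 with arrays scaled to equal median absolute deviation and 181 with robust moderation, against 298. A fit with a dye term has 1 residual degree of freedom, and one without an array has 2 arrays. The cause of the lower counts beyond this was not tested. Members with 1 sign on the arrays kept numbered 12 to 16 above 0 and 10 to 16 below 0 when 1 array was left out, against 10 each on all 3. Such counts cannot fall when an array is left out, so they show no stability. The same counts over all genes were not made. Without array 1, 16 were above 0, and without array 2, 16 were below 0. Means of 10 members, all between -0.18 and 0.20, turned sign without 1 array: over the 3 such fits they ranged from -0.065 to 0.155 for CRK2, -0.155 to 0.40 for CRK19, -0.215 to 0.59 for CRK24, -0.54 to 0.025 for CRK28, -0.075 to 0.185 for CRK31, -0.055 to 0.04 for CRK32, -0.02 to 0.085 for CRK33, -0.02 to 0.13 for CRK34, -0.045 to 0.135 for CRK37 and -0.13 to 0.075 for CRK38. The family median ranged from -0.0375 without array 2 to 0.0575 without array 1, and that of the AT4G23130 to AT4G23320 cluster from 0.02 without array 2 to 0.1875 without array 3. No member turned sign with a dye term, scaled arrays, robust moderation, the median of the probes or each probe alone, though CRK24 came to 0 with the dye term. The fit is itself paired, since each ratio sets both genotypes of 1 array against each other, and no further replicate term could be added.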
